A study of Homo sapiens with 3 samples.

Results

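The transcripts of 10 Notch pathway genes were followed in 3 lines of HT1080, an established human fibrosarcoma cell line: the ligands DLL1, DLL3, JAG1 and JAG2, the receptors NOTCH1, NOTCH2 and NOTCH3, the receptor-modifying enzyme LFNG, and the target genes HES1 and HEY1. Every probe set that the platform's annotation assigns to only 1 of these symbols was taken, which gave 29 probe sets for the 10 genes, of 19775 genes with a probe set on the array. RECK/4NQ cells were stably transfected with a pZeoSV2(+) vector encoding RECK with 4 of its N-glycosylated asparagines (Asn86, Asn200, Asn297 and Asn352) changed to glutamine. RECK cells carry the same vector with RECK whose glycosylation sites are intact, and Zeo cells were mock-transfected. The medium of all 3 lines held 10% fetal calf serum, Zeocin at 50 µg/mL served for selection, and each line was measured on 1 Affymetrix array. Clonal origin is not stated in the labels for any line. RECK over Zeo addresses what goes with transfected RECK, and RECK/4NQ over RECK addresses the loss of its glycosylation sites, while RECK/4NQ over Zeo changes both; any other difference between the lines cannot be told apart from the transfected gene.

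Notch signalling passes between touching cells. A ligand of the Delta-like or Jagged type on 1 cell binds a Notch receptor on the next, the sheddase ADAM10 and then the gamma-secretase complex cut the receptor, and its freed intracellular part binds the DNA-binding protein RBPJ and switches on genes such as HES1 and HEY1, which encode transcriptional repressors. RECK is a membrane-anchored inhibitor of metalloproteinases, and in mouse neural precursor cells it is known to restrain the shedding of Notch ligands by ADAM10. That action is on proteins, while the arrays measure RNA.

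Each value is a MAS5 signal, a linear intensity. Different probe sets bind with different strength, so signals are compared between arrays for the same probe set only. Signals under 12.3, called the floor and placed at the 40th percentile of the whole table, were treated as not measurable and set to the floor for ratios, and a ratio with 1 array under it is a lower bound, written "at least". With 1 array per line there is no replicate error and no test. In its place, each ratio is set beside the robust spread of ratios over the 1000 genes closest to it in level, called the spread below, in which true differences and noise are mixed. A gene was called higher or lower when its brightest probe set differed at least 2-fold.

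Across the arrays the sum of signals lay between 11372200 and 12517000, and the median signal was 17.3 in RECK/4NQ, 17.9 in RECK and 20.3 in Zeo. The median log2 ratio of all genes whose mean level reached the floor was -0.12 in RECK/4NQ over Zeo, -0.20 in RECK over Zeo and 0.06 in RECK/4NQ over RECK; ratios are given as deposited unless said to be relative to these medians. The brightest of 5 probe sets of RECK itself read 442 in RECK/4NQ, 387 in RECK and 264 in Zeo, and the others lay between 2.08 and 26.2. No source used here says whether any of them matches the transfected sequence, so they are no check of the labels. Of 10 mesenchymal markers, VIM (10611 in RECK/4NQ, 10704 in RECK, 10307 in Zeo), SPARC and FN1 were bright on all arrays, whereas COL3A1 was at or under 18.7. PDGFRB read 12.2 in RECK/4NQ, just under the floor, 67.3 in RECK and 22.9 in Zeo. RECK was thus 2.94-fold higher than Zeo, and RECK/4NQ at least 5.49-fold lower than RECK. COL1A2 was at least 2.14-fold lower in RECK/4NQ than in Zeo, and S100A4 2.02-fold lower in RECK/4NQ than in RECK. The other mesenchymal markers were not past 2-fold. The summed signal of the mesenchymal list was 21950 in RECK/4NQ, 20477 in RECK and 20191 in Zeo. Of 7 epithelial markers 4 were under the floor on all arrays, EPCAM among them, while KRT18 was at 8807 in RECK/4NQ, 7371 in RECK and 9895 in Zeo. KRT8 was highest in RECK instead, at 1039 in RECK/4NQ, 1659 in RECK and 1306 in Zeo. CDH1 was above the floor in RECK/4NQ only, at 15.6. The list summed to 9870, 9056 and 11213 in that order of lines, most of it from KRT18. The 4 leukocyte markers with a probe set summed to 89.1 in RECK/4NQ, 55.4 in RECK and 101 in Zeo, and the 5 endothelial markers to 103, 94.0 and 132; CD14, KDR and CDH5 were under the floor on all arrays. Above it on all arrays were CD3E, at 34.3 in RECK/4NQ, 26.6 in RECK and 48.7 in Zeo, and PECAM1, at 72.4, 70.3 and 108. ITGAM read 42.7 in RECK/4NQ, 12.1 in RECK, just under the floor, and 32.6 in Zeo, so RECK was at least 3.49-fold lower than RECK/4NQ and at least 2.66-fold lower than Zeo. The part of these differences in the results below was not tested.

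The letters TGGGAA form the core that RBPJ is known to bind. Of the 10 genes, 7 matched RefSeq's table of start sites (GRCh38.p14), with 8 start sites between them. The 250 bases before each start site were searched for TGGGAA on both strands, that is also for TTCCCA. DLL1, DLL3 and HEY1 had no entry and were not searched. The letters were found at 2 start sites: 2 copies before HES1, whose first bases lie 84 and 70 bases before the start, and 1 copy before the second start of LFNG, 248 bases before it. At least 1 copy stood before 20.8% of 35116 start sites in the table and at least 2 copies before 2.90%. The longer GTGGGAA, which contains the first motif, preceded 5.43% of start sites and, among these 8, only that of HES1, at its copy 84 bases before the start. A match is a description of the letters and not a measured site. The sequence before HES1 is shown because HES1 is the target gene most used as a readout of Notch activity. The one before LFNG is shown because LFNG is the only other of the 7 searched genes with a match. TGGGAA is in capitals.
HES1, chr3:194135898-194136147, plus strand: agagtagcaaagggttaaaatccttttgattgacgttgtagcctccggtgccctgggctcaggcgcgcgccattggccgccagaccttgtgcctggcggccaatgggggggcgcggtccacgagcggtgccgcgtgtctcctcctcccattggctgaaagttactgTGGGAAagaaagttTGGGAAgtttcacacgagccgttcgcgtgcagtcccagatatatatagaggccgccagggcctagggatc
LFNG, second start, chr7:2517613-2517862, plus strand: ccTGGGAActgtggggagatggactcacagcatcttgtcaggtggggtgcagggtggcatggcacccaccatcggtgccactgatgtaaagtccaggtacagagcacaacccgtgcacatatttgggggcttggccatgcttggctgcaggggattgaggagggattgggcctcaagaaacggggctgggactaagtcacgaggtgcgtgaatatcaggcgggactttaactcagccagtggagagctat

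Of the 10 genes, 3 were lower in RECK/4NQ than in Zeo (DLL1, DLL3 and NOTCH1), none was higher and 7 were not past 2-fold. Of all genes 7.42% were lower by this rule and 2.94% higher, 10.4% in all. In RECK against Zeo, 2 were lower (DLL1 and NOTCH1), none was higher and 8 were not past 2-fold, where 6.92% of all genes were lower and 4.13% higher, 11.0% in all. In RECK/4NQ against RECK, DLL1 was higher and DLL3 lower, with 8 not past 2-fold, where 4.60% of all genes were higher and 5.97% lower, 10.6% in all. The median log2 ratio of the 10 genes was 0.08 in RECK/4NQ over Zeo, -0.44 in RECK over Zeo and 0.29 in RECK/4NQ over RECK, beside the medians of all genes given above. The comparisons share arrays, so they are not separate observations. With the floor at the 60th percentile neither DLL1 nor DLL3 passed 2-fold in RECK/4NQ over RECK. With all probe sets of a gene averaged none of DLL1, DLL3 and NOTCH1 passed it in any comparison. For NOTCH1 this outcome was fixed, because its second probe set was under the floor on all arrays and so counted as unchanged. The same holds for DLL1 in RECK/4NQ over Zeo, where its other probe set was under the floor on both arrays. Averaging is therefore no check of the NOTCH1 ratios or of DLL1 in RECK/4NQ over Zeo. In the other comparisons the second DLL1 probe set was above the floor in RECK and went the opposite way. There averaging took the DLL1 log2 ratio from -3.01 to -0.84 in RECK over Zeo and from 1.97 to 0.32 in RECK/4NQ over RECK.

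**Figure D1:**
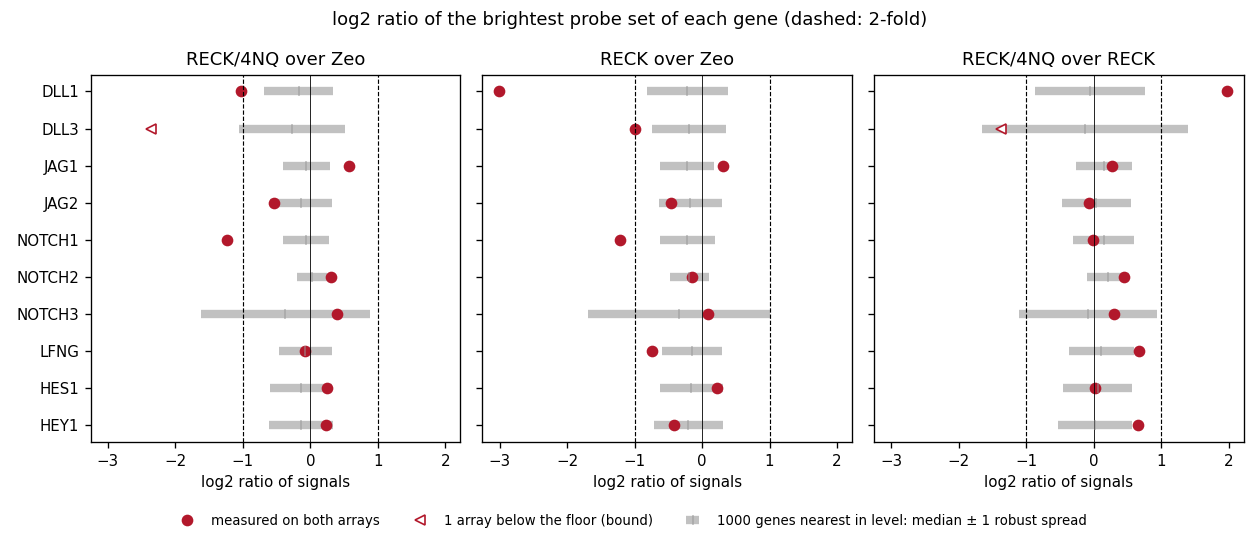
The log2 ratio of signals (horizontal axis) of the brightest probe set of each of the 10 genes in the 3 comparisons, where grey bars give the median ± 1 robust spread of the 1000 genes nearest in level, dashed lines mark 2-fold and open triangles mark a bound. DLL1 at -3.01 in RECK over Zeo lies farthest from its grey bar, and HES1 lies inside its bar in every panel.

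DLL1 encodes Delta-like 1, a membrane ligand that activates Notch on neighbouring cells. Its brightest probe set, 224215_s_at, read 54.4 in RECK/4NQ, 13.8 in RECK and 111 in Zeo. The order of the lines was thus Zeo, RECK/4NQ, RECK, with the RECK signal just above the floor. RECK was 8.03-fold lower than Zeo (log2 ratio -3.01, at -4.63 spreads from the median of its neighbours in level, and rank 6 from the lowest among 13256 genes measured on both arrays). Level is the mean log2 signal of both arrays compared, so these neighbours are not genes near the floor. The rank leaves out every gene with either signal under the floor. With the floor at the 60th percentile this log2 ratio was -1.999. RECK/4NQ was 2.04-fold lower than Zeo, at -1.69 spreads, and 1.88-fold lower relative to all genes, which is short of 2-fold. RECK/4NQ was 3.93-fold higher than RECK, at 2.50 spreads.

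The only other DLL1 probe set, 227938_s_at, went the opposite way. It read 7.91 in RECK/4NQ, 30.8 in RECK and 2.97 in Zeo, so only the RECK signal was above the floor, and RECK was at least 2.51-fold higher than RECK/4NQ and than Zeo. RECK was thus the lowest line by the brightest probe set and the highest by the other, and which of them follows DLL1 RNA was not tested. The names of both mark probes that can match several transcripts. Averaging them on the floored log2 scale gave log2 ratios of -0.52 in RECK/4NQ over Zeo, -0.84 in RECK over Zeo and 0.32 in RECK/4NQ over RECK, none of which is past 2-fold. Of 850 genes called in RECK over Zeo that had another probe set above the floor on at least 1 of these arrays, 69 (8.12%) had one past 2-fold in the opposite direction and 213 (25.1%) one past it in the same direction.

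**Figure D2:**
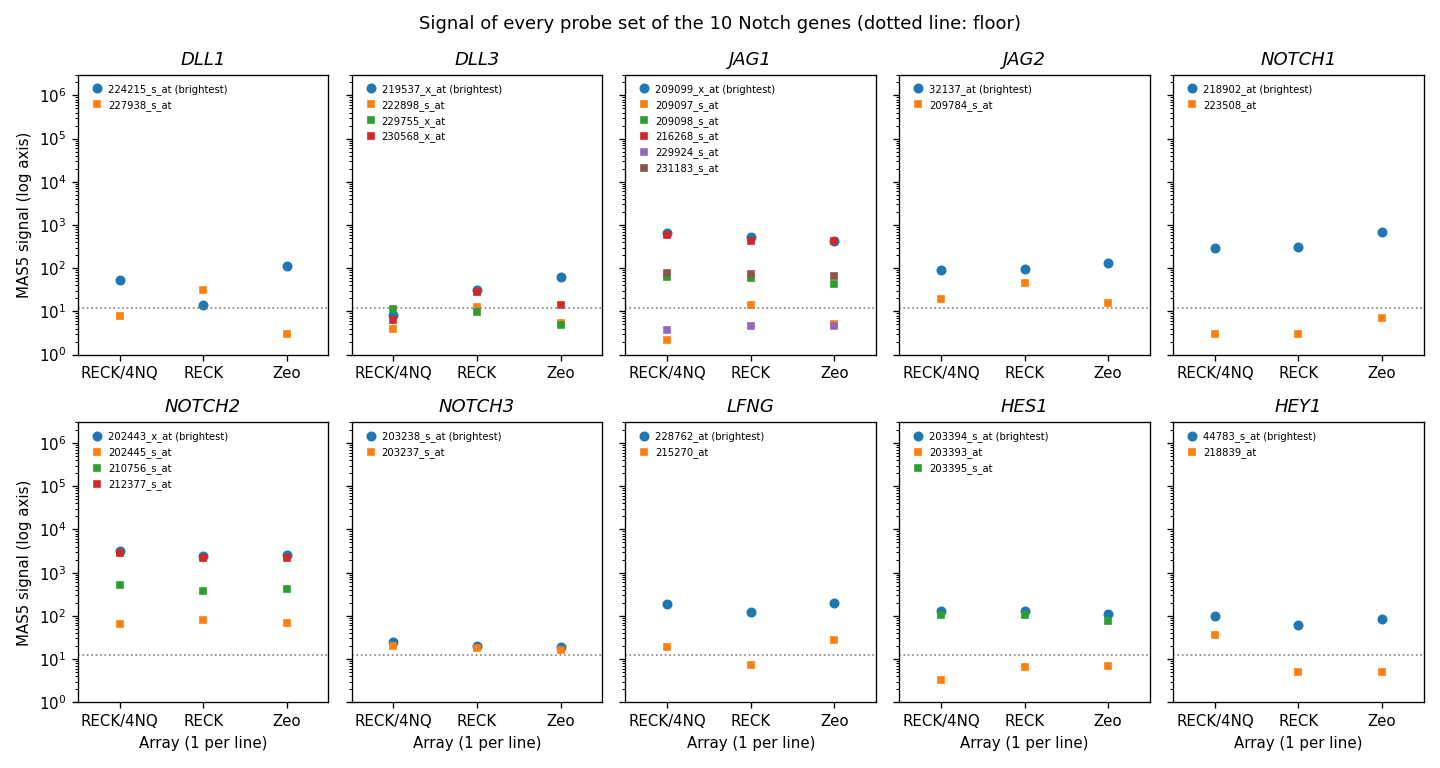
The MAS5 signal (log axis) of each of the 29 probe sets on the RECK/4NQ, RECK and Zeo arrays, 1 panel per gene; circles are the brightest probe set, squares the others, and the dotted line is the floor of 12.3. In the DLL1 panel the circle is lowest and the square highest in RECK, while the JAG1 and NOTCH2 circles are highest in RECK/4NQ.

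The genes whose profile over the 3 arrays was closest to that of 224215_s_at, among 12334 genes measured on all of them and by the distance between log2 signals centred on each gene's mean, were CSPG4 and GTF2IP20. CSPG4, a membrane proteoglycan, read 58.0 in RECK/4NQ, 15.3 in RECK and 99.8 in Zeo, a distance of 0.23 log2 units. GTF2IP20 read 48.5, 14.0 and 82.9 in that order, at 0.31 log2 units. With 3 arrays such likeness describes the signals only.

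DLL3, a Delta-like protein that does not activate Notch on neighbouring cells and is known to inhibit it within its own cell, read 8.05 in RECK/4NQ, 31.9 in RECK and 63.2 in Zeo by its brightest probe set, 219537_x_at. RECK/4NQ lay under the floor, at least 5.16-fold lower than Zeo and at least 2.60-fold lower than RECK, at -2.65 and -0.82 spreads. The log2 ratio of RECK/4NQ over Zeo was -2.37, against -1.18 with the floor at the 60th percentile. RECK was 1.98-fold lower than Zeo and so just short of 2-fold, where DLL1 in RECK/4NQ at 2.04-fold was just past it. A second probe set, 230568_x_at, read 6.37 in RECK/4NQ, 28.7 in RECK and 14.3 in Zeo. It shared the low RECK/4NQ signal but had RECK 2.00-fold higher than Zeo, against the brightest. The other DLL3 probe sets were at or under 12.6 on every array. All 4 carry names that mark shared probes.

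JAG1, a Jagged ligand that activates Notch on neighbouring cells, was highest in RECK/4NQ by each of its 4 probe sets measured on all arrays. Of its remaining probe sets, 209097_s_at was above the floor in RECK only, at 14.4 against 2.13 in RECK/4NQ and 5.08 in Zeo. The last, 229924_s_at, was under the floor on all arrays. All 6 carry names that mark shared probes. The brightest JAG1 probe set, 209099_x_at, read 649 in RECK/4NQ, 537 in RECK and 435 in Zeo, and 216268_s_at read 592, 429 and 419 in that order. RECK/4NQ was 1.49-fold and 1.41-fold higher than Zeo by these, and 1.45-fold and 1.15-fold by 209098_s_at and 231183_s_at. None passed 2-fold. The ratio of the brightest lay 1.84 spreads above its median in RECK/4NQ over Zeo, 1.33 in RECK over Zeo and 0.28 in RECK/4NQ over RECK. Relative to Zeo, the brightest probe set of JAG1 ran opposite to the brightest of DLL1 and of DLL3.

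JAG2, the second Jagged ligand, read 90.1 in RECK/4NQ, 94.6 in RECK and 130 in Zeo by its brightest probe set, 32137_at, at -0.84, -0.60 and -0.21 spreads in the order RECK/4NQ over Zeo, RECK over Zeo and RECK/4NQ over RECK. Its other probe set, 209784_s_at, read 19.5 in RECK/4NQ, 44.5 in RECK and 15.4 in Zeo. By this one RECK was 2.90-fold higher than Zeo and RECK/4NQ 2.28-fold lower than RECK. The dimmer probe sets 227938_s_at of DLL1, 230568_x_at of DLL3 and 209784_s_at of JAG2 were thus highest in RECK, as was 222898_s_at of DLL3 (3.92 in RECK/4NQ, 12.6 in RECK, 5.35 in Zeo), where the brightest of each gene was highest in Zeo.

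NOTCH1 was the only receptor of the 3 past 2-fold. Its brightest probe set, 218902_at, read 298 in RECK/4NQ, 302 in RECK and 702 in Zeo. Both transfected lines were lower than Zeo, RECK/4NQ 2.36-fold (-3.41 spreads) and RECK 2.33-fold (-2.48 spreads), and they differed from each other by 1.01-fold (-0.36 spreads). Relative to all genes the folds were 2.16 and 2.03. The second NOTCH1 probe set read 3.03 in RECK/4NQ, 3.04 in RECK and 7.17 in Zeo, all under the floor. The closest profiles were those of RAX2 and MESP2, both transcription factor genes, at distances of 0.02 and 0.03 log2 units. RAX2 read 42.6 in RECK/4NQ, 43.4 in RECK and 102 in Zeo, and MESP2 read 60.4, 62.9 and 144.

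Most of the genes next to NOTCH1 on chromosome 9 were lower as well. For the 10 genes on either side in gene order whose mean level reached the floor, the median log2 ratio was -0.68 in RECK/4NQ over Zeo and -0.75 in RECK over Zeo, with 15 and 16 of 20 below 0 and 15 and 13 of 20 below the median of all genes. Past 2-fold, 1 of the 20 was higher and 5 lower in RECK/4NQ over Zeo, and 3 were higher and 3 lower in RECK over Zeo. Several neighbours far above the floor were lower in both transfected lines. SEC16A, which organises exit from the endoplasmic reticulum, read 1567 in RECK/4NQ, 1469 in RECK and 2515 in Zeo. PMPCA, a subunit of the mitochondrial processing peptidase, read 1749, 1457 and 2749, and AGPAT2, an enzyme of phospholipid synthesis, 691, 700 and 1232 in that order. EGFL7, a secreted protein with EGF-like repeats known to bind Notch receptors, lies 3 genes from NOTCH1 in this order and read 119 in RECK/4NQ, 139 in RECK and 277 in Zeo. TMEM141, the last of the 20, read 451, 424 and 434, and C9orf163, the nearest to NOTCH1 on the other side, went the other way at 58.4 in RECK/4NQ, 78.7 in RECK and 19.9 in Zeo.

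Of 13704 genes with 20 such neighbours, 0.197% had a neighbour median as low as that of NOTCH1 in RECK/4NQ over Zeo and 0.744% in RECK over Zeo, where windows of adjacent genes overlap and count the same genes repeatedly. Less the neighbour median, the log2 ratio of NOTCH1 was -0.55 in RECK/4NQ over Zeo and -0.47 in RECK over Zeo, no longer past 2-fold. The part of the region in the NOTCH1 result was not tested. For DLL1, with 14 such neighbours, the neighbour medians were 0.25 and -0.24, and for DLL3, with 20, they were -0.17 and -0.28.

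**Figure D3:**
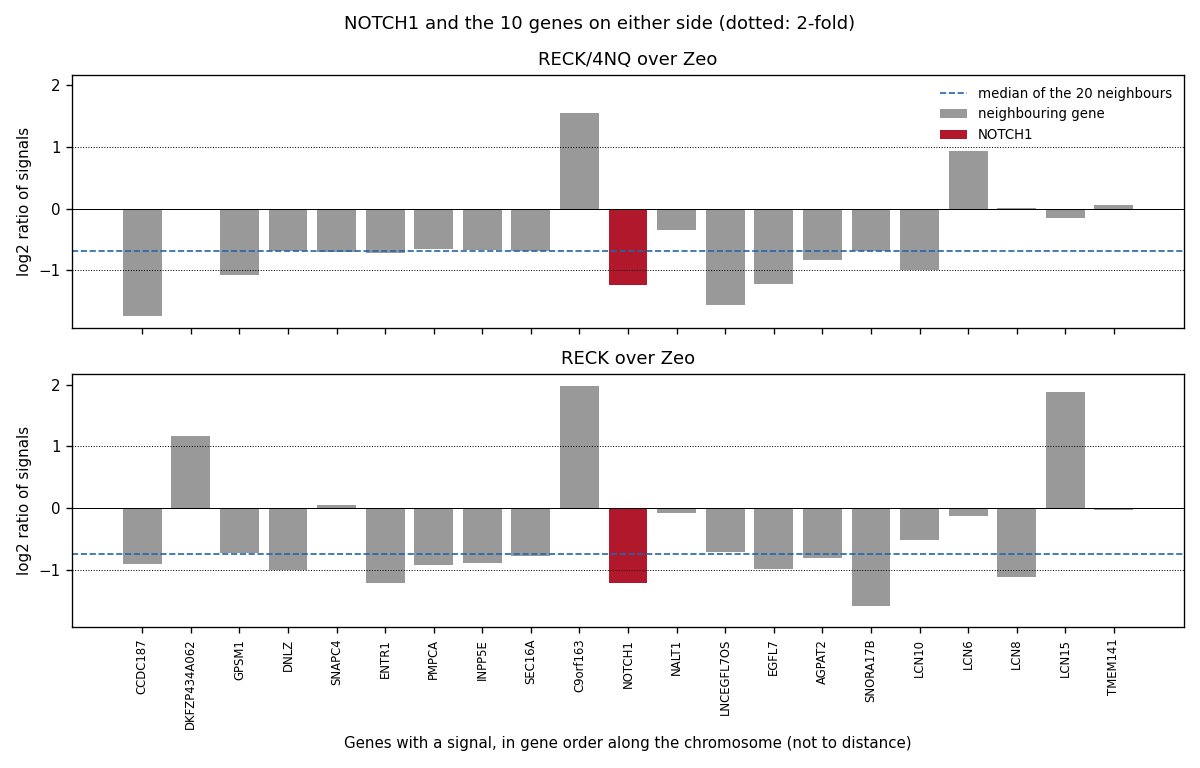
The log2 ratio of signals (vertical axis) of NOTCH1 (red) and of the 10 genes on either side whose mean level reached the floor (grey), in gene order, for RECK/4NQ over Zeo (top) and RECK over Zeo (bottom). Most bars lie below 0, and the dashed lines show the neighbour medians of -0.68 and -0.75; DKFZP434A062 has no bar in the top panel because both of its signals were under the floor.

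All 4 probe sets of NOTCH2 were measured on every array, and none passed 2-fold. Its brightest, 202443_x_at, read 3247 in RECK/4NQ, 2372 in RECK and 2621 in Zeo, and 212377_s_at read 2826, 2187 and 2227 and 210756_s_at 516, 367 and 417 in that order. RECK/4NQ was 1.24-fold and 1.27-fold higher than Zeo by the 2 brightest, and 1.37-fold and 1.29-fold higher than RECK. The dimmest, 202445_s_at, had RECK highest instead, at 64.8 in RECK/4NQ, 81.7 in RECK and 68.6 in Zeo. The brightest lay 1.26 spreads above its median in RECK/4NQ over Zeo, 0.16 in RECK over Zeo and 0.77 in RECK/4NQ over RECK. All 4 are of the kind with shared probes, and NOTCH2 has near-identical partial copies in the NOTCH2NL genes; 1 more probe set, annotated to NOTCH2 and NOTCH2NL genes together and so left out, read 734 in RECK/4NQ, 566 in RECK and 498 in Zeo.

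NOTCH3 lay close to the floor, and the names of both its probe sets mark shared probes. Its probe set 203238_s_at read 24.8 in RECK/4NQ, 20.01 in RECK and 18.9 in Zeo, and 203237_s_at read 20.2, 18.4 and 16.3. Both gave the same order of lines, but the ratios, at most 1.31-fold, lay within 0.61 spreads, and the spread of genes at this level was over 1 log2 unit.

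LFNG, the fringe enzyme that extends sugars on Notch and is known to favour its response to Delta-like over Jagged ligands, was lowest in RECK. The brightest probe set, 228762_at, read 192 in RECK/4NQ, 121 in RECK and 202 in Zeo. RECK was 1.67-fold lower than Zeo (-1.34 spreads), RECK/4NQ 1.59-fold higher than RECK (1.13 spreads) and 1.05-fold lower than Zeo. The second probe set, 215270_at, had the same order, at 19.0 in RECK/4NQ, 7.47 in RECK, under the floor, and 27.3 in Zeo, where RECK was at least 2.23-fold lower than Zeo.

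The target genes differed little by their brightest probe sets. HES1, whose upstream sequence with 2 RBPJ core motifs is given above, read 132 in RECK/4NQ, 131 in RECK and 112 in Zeo by 203394_s_at, and 104, 107 and 77.7 by 203395_s_at. Both had Zeo lowest, by 1.18-fold and 1.34-fold against RECK/4NQ and by 1.17-fold and 1.37-fold against RECK, which for the brightest is 0.83 and 0.82 spreads. The remaining probe set, 203393_at, was under the floor on all arrays. The names of both measured HES1 probe sets mark probes that can match several transcripts.

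HEY1 read 98.6 in RECK/4NQ, 62.7 in RECK and 83.8 in Zeo by 44783_s_at, at 0.80 spreads in RECK/4NQ over Zeo, -0.43 in RECK over Zeo and 1.15 in RECK/4NQ over RECK. Its other probe set, 218839_at, was above the floor in RECK/4NQ only, at 35.8 against 5.10 in RECK and 4.90 in Zeo, so RECK/4NQ was at least 2.92-fold higher than both. The 2 probe sets agree in placing RECK/4NQ highest and differ in size. The name of 44783_s_at marks shared probes.

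The other genes of the pathway numbered 54, of which 50 were analysed here. In RECK/4NQ against Zeo, 3 of the 50 were higher, 2 lower and 45 not past 2-fold. In RECK against Zeo, 5 were higher, 4 lower and 41 not past it, and in RECK/4NQ against RECK, 3 were higher, 3 lower and 44 not past it. As shares these stand beside the percentages of all genes given above. The median log2 ratio of the 46 whose mean level reached the floor was -0.29 in RECK/4NQ over Zeo, -0.34 in RECK over Zeo and 0.08 in RECK/4NQ over RECK.

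Among ligand-like genes, DLK1, a Delta-like protein that lacks the domain for activating Notch, read 9.003 in RECK/4NQ, 23.4 in RECK and 29.3 in Zeo, at least 2.39-fold lower in RECK/4NQ than in Zeo. Its other probe set read 4.03, 3.44 and 40.5. DLK2, its relative, was 2.31-fold lower in RECK than in Zeo, with signals of 113 in RECK/4NQ, 76.7 in RECK and 177 in Zeo. DLL4, the Delta-like ligand best known from blood vessels, was above the floor in RECK only, at 30.6 against 3.56 in RECK/4NQ and 8.42 in Zeo. EGFL7 was 2.32-fold lower in RECK/4NQ than in Zeo and 1.99-fold lower in RECK.

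By their brightest probe sets, the proteases that cut Notch were not past 2-fold in any comparison. ADAM10, which sheds ligands and makes the first cut in the receptor, read 45.5 in RECK/4NQ, 62.5 in RECK and 84.0 in Zeo by its brightest probe set. Its other probe sets read 9.14, 9.75 and 20.02, and 6.98, 13.2 and 20.3, with Zeo highest in each. RECK/4NQ was 1.84-fold lower than Zeo and RECK 1.34-fold. ADAM17, a related sheddase, read 71.2 in RECK/4NQ, 56.8 in RECK and 87.7 in Zeo by its brightest. The other ADAM17 probe sets read 79.3, 41.5 and 79.3, and 22.2, 4.08 and 22.8, with RECK lowest in each. The gamma-secretase subunit gene NCSTN read 657 in RECK/4NQ, 478 in RECK and 438 in Zeo by its brightest probe set. Its other probe set read 17.0, 9.81 and 24.7 in that order, with Zeo highest instead of lowest.

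In the nucleus, RBPJ read 99.9 in RECK/4NQ, 94.7 in RECK and 135 in Zeo by its brightest probe set, and 49.3, 41.7 and 41.6 by another. The remaining RBPJ probe set read 1.51, 12.5 and 18.4, with RECK/4NQ under the floor. The acetyltransferase gene KAT2A was 2.05-fold lower in RECK than in Zeo (643 in RECK/4NQ, 372 in RECK, 764 in Zeo). MAML3, a coactivator that binds the RBPJ complex, was 2.04-fold higher in RECK/4NQ than in RECK, at 123 against 60.2, with Zeo at 78.9. POGLUT1, which adds glucose to Notch, was under the floor in RECK at 11.1, against 31.0 in RECK/4NQ and 42.6 in Zeo, while its other probe set was highest in RECK, at 20.1 against 6.08 in RECK/4NQ and 5.71 in Zeo. NEURL1B, a ubiquitin ligase that acts on ligands, read 9.29 in RECK/4NQ, 56.0 in RECK and 23.2 in Zeo.

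HEY2 and NRARP, from the list of target genes, and DTX1, from that of ligand endocytosis and receptor turnover, were the pathway genes past 2-fold higher in both transfected lines than in Zeo. HEY2, a relative of HEY1, read 44.9 in RECK/4NQ and 45.5 in RECK, against 7.80 in Zeo, at least 3.67-fold and 3.71-fold higher; its other probe set was above the floor in RECK/4NQ only, at 26.2. NRARP, a Notch target that dampens the pathway, read 26.6 in RECK/4NQ and 35.3 in RECK, against 12.3 in Zeo, 2.16-fold and 2.87-fold higher with Zeo at the floor. DTX1, a ubiquitin ligase that binds Notch, read 39.96 in RECK/4NQ and 42.0 in RECK, against 8.89 in Zeo, at least 3.26-fold and 3.43-fold higher. For each of these 3 genes both ratios rest on 1 dim Zeo signal. The target gene HEYL, named after its values were seen, was another dim one and lay the other way, short of 2-fold, at 20.6 in RECK/4NQ, 23.4 in RECK and 30.9 in Zeo.

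Other HES genes went different ways. HES6, which is known to oppose HES1, read 150 in RECK/4NQ, 315 in RECK and 278 in Zeo, 2.10-fold lower in RECK/4NQ than in RECK. HES2 was 2.51-fold lower in RECK than in Zeo, with 48.6 in RECK/4NQ, 22.8 in RECK and 57.0 in Zeo. Of the 10 listed target genes, HES1 and HEY1 included, 2 were higher and none lower in RECK/4NQ than in Zeo, 2 were higher and 1 lower in RECK than in Zeo, and 1 was higher and 1 lower in RECK/4NQ than in RECK. Their median log2 ratio was -0.07, -0.25 and 0.01 in these comparisons, beside -0.12, -0.20 and 0.06 for all genes.

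**Figure D4:**
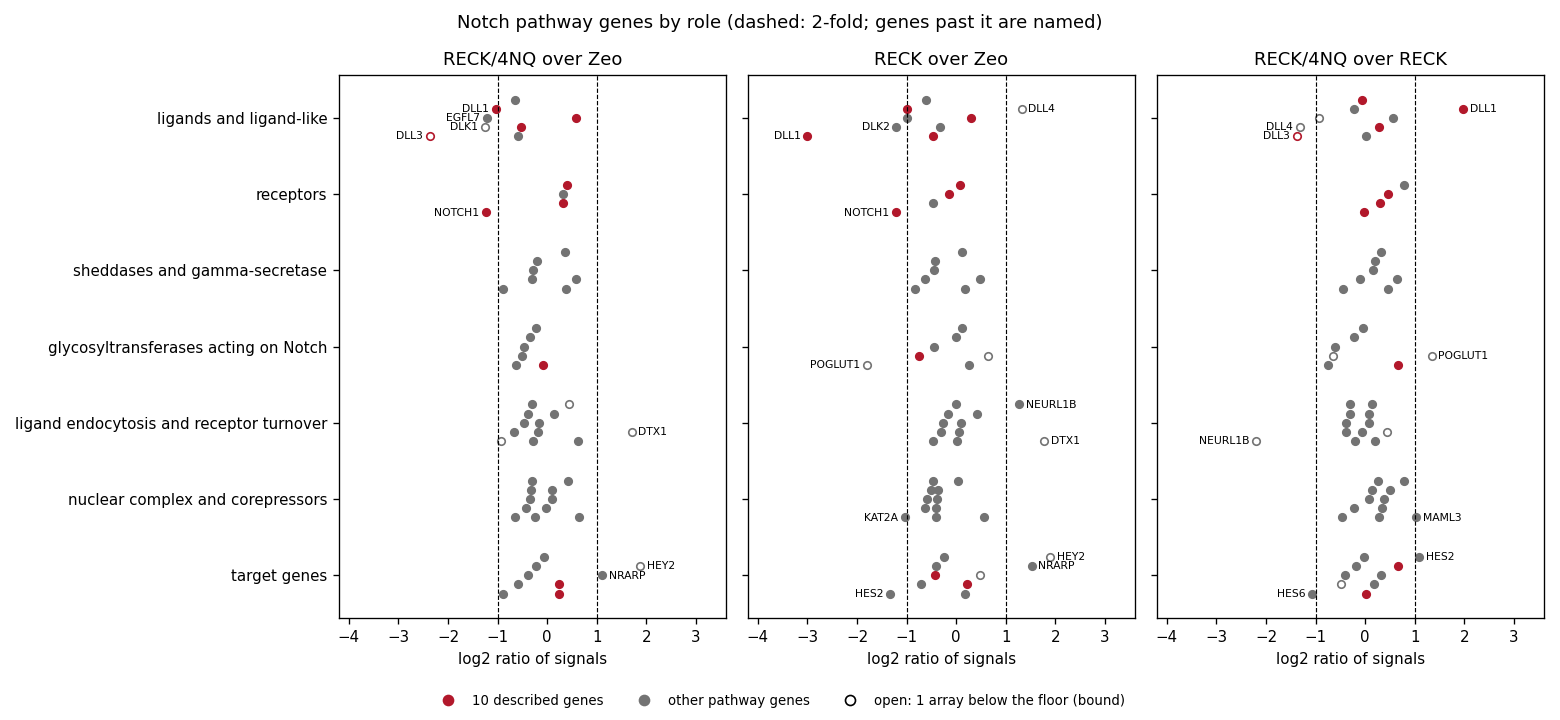
The log2 ratio of signals (horizontal axis) of the Notch pathway genes by role in the 3 comparisons; red points are the 10 genes described first, grey points the other pathway genes, open points have 1 array under the floor, and genes with both arrays under it are not drawn. Dashed lines mark 2-fold: the sheddase and gamma-secretase row has no point outside them, while HEY2 and NRARP lie to the right of them in both comparisons with Zeo.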

How the data were processed

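RNA of 3 HT1080 lines was measured on 1 Affymetrix array each. The authors deposited an intensity per probe set, computed with MAS5 per the submitters' processing notes. Which MAS5 version and which scaling target they used is not given here. MAS5 subtracts a mismatch estimate, so dim signals are noisy. The number of arrays limits the precision. Of 54675 probe sets, 62 were controls, 41091 had 1 gene symbol, 1801 several and 11721 none in the platform's annotation. RefSeq's table for GRCh38.p14 matched 41037 of those with 1 symbol and served for names and gene order.

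Calculations used Python 3.11.15 with pandas 2.3.3 and numpy 2.4.6. Each gene's value is that of its brightest probe set (highest mean floored log2 signal), and the robust spread is 1.4826 times the median absolute deviation. The code that makes the calls was tested on simulated data, which says nothing of replicate error. The genes and lists were chosen with earlier results of these data known. Genes named were the 10, the other pathway genes past 2-fold in a comparison with ADAM10, ADAM17, RBPJ and NCSTN, and the 2 closest profiles of each called gene of the 10 measured on all arrays. The neighbours of NOTCH1 were chosen after their values were seen. Alternatives changed the floor, scaling, probe set rule and fold.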

Additional observations from a re-analysis of the deposited data

How the results depend on the processing

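Each setting below was changed alone. Averaging counts a probe set under the floor on both arrays as unchanged, which by construction shrinks the ratios of NOTCH1 to Zeo. The count of the 10 genes past 2-fold in RECK/4NQ over Zeo was 3; it came to 0 when all probe sets of a gene were averaged and to 1 at a 3-fold threshold. Without shared probe sets it was 2, NOTCH1 lower and HEY1 higher (log2 ratio at least 1.55). In RECK over Zeo it was 2, against 0 with averaging, 1 without shared probe sets, 4 at 1.5-fold, 1 at 3-fold and 1 with the neighbour median subtracted, a setting added after the data were seen. In RECK/4NQ over RECK it was 2, against 0 with the floor at the 60th percentile, 1 with averaging (HEY1), 1 without shared probe sets (HEY1 again), 4 at 1.5-fold and 1 at 3-fold. Without shared probe sets 5 of the 10 genes (DLL1, DLL3, JAG1, NOTCH2 and NOTCH3) had no value. After median centring or quantile normalisation DLL1 was no longer past 2-fold in RECK/4NQ over Zeo, while NOTCH1 and DLL3 were. Of the single-gene ratios under alternatives, 176 moved by less than the local spread, 19 moved by more, and no ratio past 2-fold changed sign. Among all called genes, those higher made up 28.4% for RECK/4NQ over Zeo as deposited, 50.9% after median centring and 46.3% after quantile normalisation; for RECK over Zeo they made up 37.3%, 54.1% and 53.7%. The number of all genes past 2-fold in RECK/4NQ over Zeo, 582 higher and 1467 lower, was 1771 and 3234 with no floor and 173 and 467 under the higher floor. Under both scalings the RECK over Zeo ratio of NOTCH2, not past 2-fold, turned from -0.14 to 0.04 and 0.03 on the log2 scale. Averaging, which takes in the dimmer probe sets highest in RECK, turned JAG2 in RECK over Zeo from -0.46 to 0.54 and DLL3 from -0.99 to 0.01. Why the probe sets of these genes differ was not tested. No paired analysis was possible because each line has 1 array. Signals near the floor limit DLL1 in RECK, DLL3 in RECK/4NQ and NOTCH3 on every array.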
